A study of Mus musculus with 17 samples.

Results

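The genes described here are 39 fibroblast and extracellular matrix genes in RNA-seq libraries of mouse embryonic stem (ES) cells grown over a layer of fibroblasts. They were chosen by name, with earlier results of these data known, as collagen, contractile, matrix and related genes of mouse embryonic fibroblasts (MEFs). All 39 were among the 15470 genes listed, and all 39 were among the 15117 genes tested. The mutant line was the Nanog KO line BT12, with 3 libraries each at 0, 12 and 24 h. Its control was the parental wild-type line E14Tg2a, with 2 libraries at 0 h (replicates 2 and 3) and 3 each at 12 and 24 h. At 0 h both lines were in Knockout serum replacement with LIF and the 2i inhibitors (CHIR-99021 against GSK3 and PD0325901 against MEK), over inactivated MEFs. For 12 and 24 h the cells were moved to serum, to leave naïve pluripotency. Each genotype is 1 line. The sources used here do not say whether MEFs were present after the move or were taken out before RNA extraction, nor whether each replicate was a culture of its own. The p-values therefore measure only the spread between these libraries.

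Fibroblasts build and remodel the extracellular matrix. They secrete fibrillar collagens, which lysyl oxidases cross-link, and coat the fibrils with small proteoglycans such as decorin. In culture on a stiff surface they also form actin stress fibres, for which they make smooth muscle actin, transgelin and calponin. ES cells in culture make little of most of these proteins, but fibronectin, caldesmon and follistatin-like 1 are not restricted to fibroblasts. In bulk RNA, fewer cells of a type and less RNA of a gene per cell cannot be told apart. A change in the share of 1 cell type that itself stays the same scales the genes that only it makes by 1 factor. Genes that other cells also make need not follow that factor. The evenness of the changes over the 39 genes is given here as a description.

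Values are CPM, read counts divided by the library size, which the authors had scaled for library composition. Library depth ran from 8775372 to 33766086 reads (median 19777267), so that 3 reads correspond to 0.0851 to 0.326 CPM. Nanog itself was at 12.5 to 34.6 CPM in the 9 Nanog KO libraries and at 271 to 412 CPM in the 8 control libraries. No value of the 39 genes was 0, and 36 of them were at 1 CPM or more in every library. Eln, Lum and S100a4 dropped below 1 CPM in some control libraries. The 10 genes that most define fibroblasts (Col1a1, Col1a2, Col3a1, Dcn, Lum, Postn, Thy1, Pdgfrb, Prrx1 and Twist1) were thus detected in all 17 libraries. A call below means an adjusted p below 0.05 in limma over all 15117 tested genes, and every log2 change is of CPM + 1.

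The promoters of 3 members are shown first, because these genes had large differences between the genotypes in how they changed and lie in separate functional groups. RefSeq (GRCm38.p6) gave a window of 250 bases before to 50 bases after a start site for 23 of the 39 members, 22 under the symbol used here and Cyr61 under the name Ccn1. The windows of Acta2 (chr19:34255324-34255623, minus strand), Cyr61 (chr3:145649936-145650235, minus strand) and Col1a2 (chr6:4505368-4505667, plus strand) are printed from 5′ to 3′ along the gene. Capitals mark 3 motifs. GGAATG is the core bound by TEAD factors. TATAAA is the box near many start sites that the TATA-binding protein recognizes. CCAAT is an upstream element bound by NF-Y. Both strands were searched, so a motif of the other strand shows as its reverse complement. No 2 motifs overlap in these windows.
Acta2: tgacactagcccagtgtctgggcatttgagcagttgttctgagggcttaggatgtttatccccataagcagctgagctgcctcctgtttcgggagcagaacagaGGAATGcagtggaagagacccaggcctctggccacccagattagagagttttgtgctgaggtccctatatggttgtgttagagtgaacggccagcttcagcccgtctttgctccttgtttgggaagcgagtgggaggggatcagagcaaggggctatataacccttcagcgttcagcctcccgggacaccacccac
Cyr61: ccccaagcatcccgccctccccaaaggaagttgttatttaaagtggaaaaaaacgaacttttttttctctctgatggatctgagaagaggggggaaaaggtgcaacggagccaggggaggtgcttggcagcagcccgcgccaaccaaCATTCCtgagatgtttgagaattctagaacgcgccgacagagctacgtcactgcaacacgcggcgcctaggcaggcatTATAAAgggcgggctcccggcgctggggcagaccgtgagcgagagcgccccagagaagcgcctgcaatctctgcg
Col1a2: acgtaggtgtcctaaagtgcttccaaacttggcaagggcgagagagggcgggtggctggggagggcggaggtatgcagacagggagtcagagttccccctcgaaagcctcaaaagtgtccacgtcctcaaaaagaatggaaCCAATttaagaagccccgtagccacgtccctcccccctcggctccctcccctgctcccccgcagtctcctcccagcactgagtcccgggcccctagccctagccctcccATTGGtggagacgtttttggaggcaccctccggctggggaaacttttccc
GGAATG stood in the windows of Acta2 and Cyr61, and in 6 of the 23 member windows against 14.7% of 32851 mouse windows of this length. TATAAA stood in that of Cyr61 and in 6 member windows, against 13.6% of all. CCAAT stood in that of Col1a2, at 2 places, and in 6 of the 23 member windows, against 37.4% of all. The second match in Col1a2 begins at base 1, the start itself, on the other strand, and so is not upstream. These matches describe letters only.

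**Figure D1:**
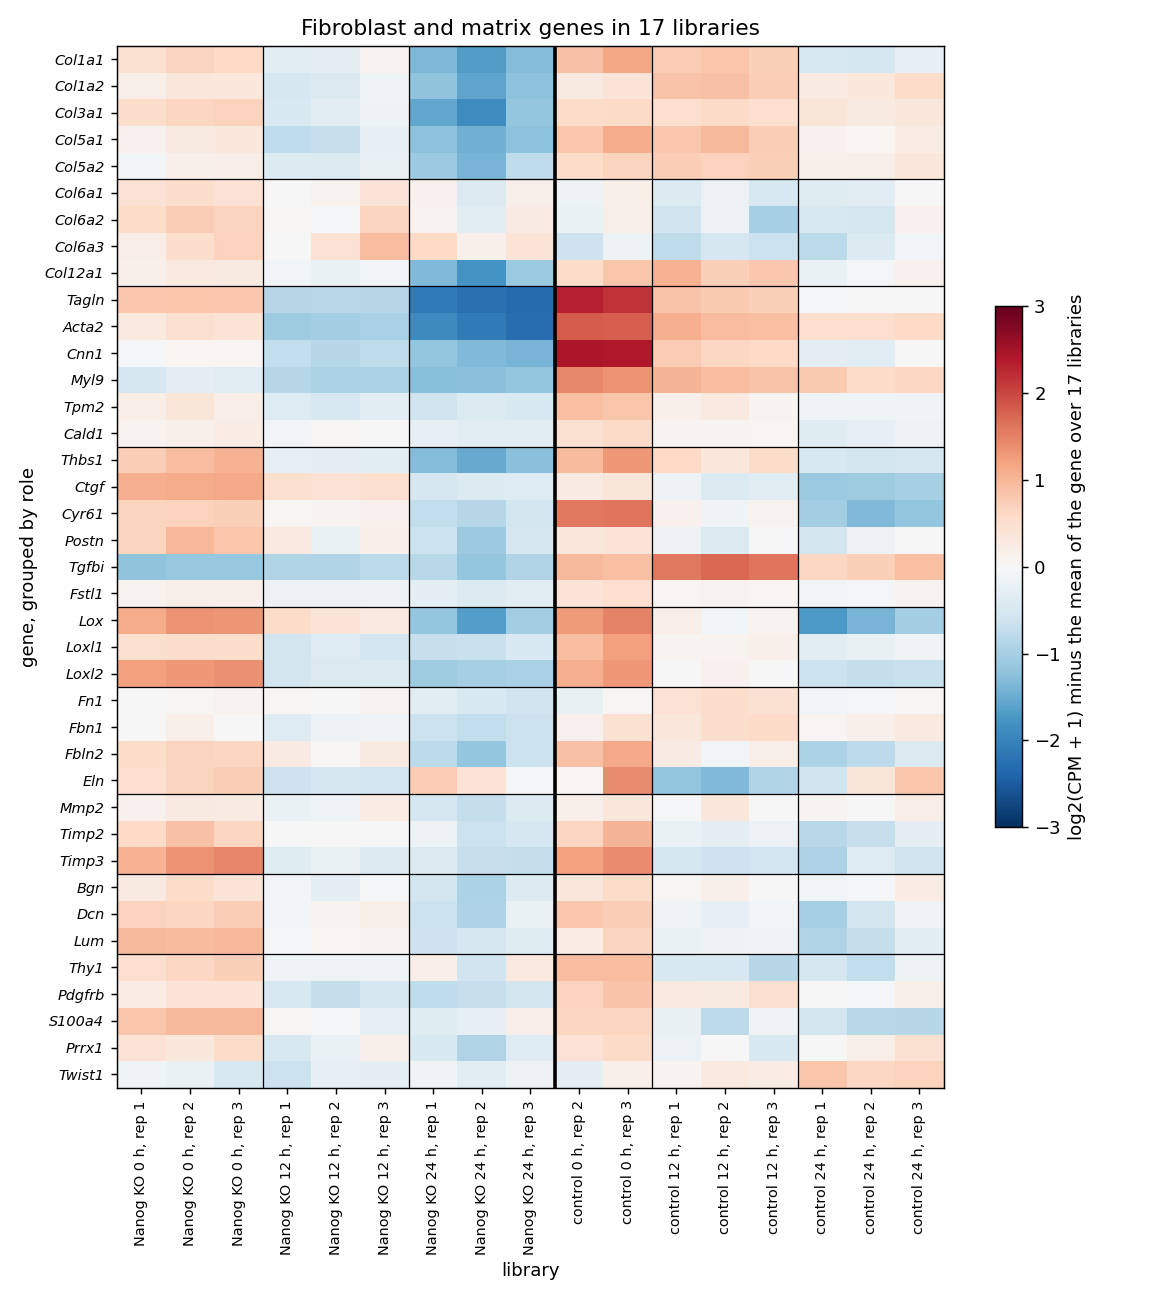
Colours give log2(CPM + 1) of each of the 39 genes (rows, grouped by role) minus its own mean over the 17 libraries (columns, Nanog KO left of control, 0 to 24 h within each). Most rows are high at 0 h and low at 24 h. Col1a2 and Col3a1 are below their means in the 3 Nanog KO libraries of 24 h and above them in the 3 control libraries of 24 h.

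Over 24 h in serum the members fell in both genotypes, and by unequal amounts. In Nanog KO cells 35 of 39 fell and 0 rose between 0 and 24 h, where 29.5% of all tested genes fell and 28.8% rose. With no adjustment 1 member (Tgfbi) passed 0.05 upwards in limma, edgeR and DESeq2 called 0, and 1 was called without Nanog KO 24 h replicate 2. In control cells 27 fell and 1 rose, where 28.7% of all tested genes fell and 26.1% rose. The median log2 change of the members was -1.14 in Nanog KO cells (quartiles -1.60 and -0.69) and -0.76 in control cells (quartiles -1.41 and -0.28), beside 0.00 and -0.01 over all tested genes. Put as shares of the 0 h mean, the median member kept 40.1% at 24 h in the Nanog KO line and 58.5% in the control line. In Nanog KO cells the lowest and highest shares were 11.7% for Tagln and 116% for Tgfbi. In control cells they were 13.8% for Lox and 186% for Twist1. The quartiles were 29.9% and 61.0% in Nanog KO cells, and 33.5% and 81.3% in control cells. The 39 members as a set thus did not move by 1 common factor in either line, and the cause was not tested. Within 0.5 log2 units of the median lay 23 of 39 members in Nanog KO cells and 14 of 39 in control cells. Of all tested genes 73.2% and 71.6% lay that near their own median. The tested genes as a whole did not shift, so these shares are no reference for how evenly a falling set moves.

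Means fell at both steps for 33 of 39 members in Nanog KO cells and 26 of 39 in control cells, beside 24.8% and 25.4% of all tested genes. Between 0 and 12 h, 32 members fell and 1 rose in Nanog KO cells, where 26.1% of all tested genes fell and 25.7% rose. The corresponding counts in control cells were 25 and 3 (5 without control 0 h replicate 3), where 24.5% fell and 22.6% rose. Between 12 and 24 h, 26 fell and 1 rose in Nanog KO cells, where 14.3% fell and 13.1% rose. In control cells 24 fell and 2 rose over this step, where 16.8% fell and 15.1% rose. The single member that rose at this step in Nanog KO cells was Eln, a call that was lost without any 1 of 5 Nanog KO libraries of 12 and 24 h (log2 change 0.74 to 0.96 in those fits).

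Between the genotypes, 16 members were lower and 6 higher in the Nanog KO line at 0 h, where 26.9% of tested genes were lower and 25.4% higher. At 12 h 20 were lower and 5 higher, where 25.2% of tested genes were lower and 24.6% higher. At 24 h 24 were lower and 4 higher (Col6a3, Ctgf, Cyr61 and S100a4), where 24.5% were lower and 23.4% higher. The quartiles of the members' genotype differences were -0.48 and 0.02 at 0 h and -1.06 and 0.12 at 24 h. The libraries of the genotypes did not overlap for 64.1%, 84.6% and 69.2% of members at 0, 12 and 24 h. For all tested genes these shares were 67.0%, 61.0% and 52.9%. Lack of overlap in a single member, given below, was thus common among all genes, and at 0 h no more frequent in the members. The change over 24 h differed between the genotypes for 21 of 39 members by the limma interaction term. It was more negative in the Nanog KO line for 17, where 14.3% of tested genes were, and more positive for 4 (Cnn1, Cald1, Cyr61 and Tgfbi), where 15.5% were. The interactions of Cald1 and Tgfbi were lost without control 0 h replicate 3 (0.24 and 0.41), which left 2 more positive, and that of Tgfbi was also lost without most other libraries of 0 or 24 h. Over the first 12 h, 11 interactions were negative and 3 positive, where 9.6% and 9.94% of tested genes were, and over the next step 4 were negative and 2 positive, where 1.96% and 2.35% were. The 11 became 7 without Nanog KO 0 h replicate 2, control 0 h replicate 2 or control 12 h replicate 3, and the 2 (Cyr61 at 0.42 and Tgfbi at 0.79) became 1 (Tgfbi) without any 1 of 12 libraries from every group but control 0 h, among which the Cyr61 value ran from 0.33 to 0.44. The 6 higher at 0 h became 1 without control 0 h replicate 2 and 3 without Nanog KO 0 h replicate 2.

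**Figure D2:**
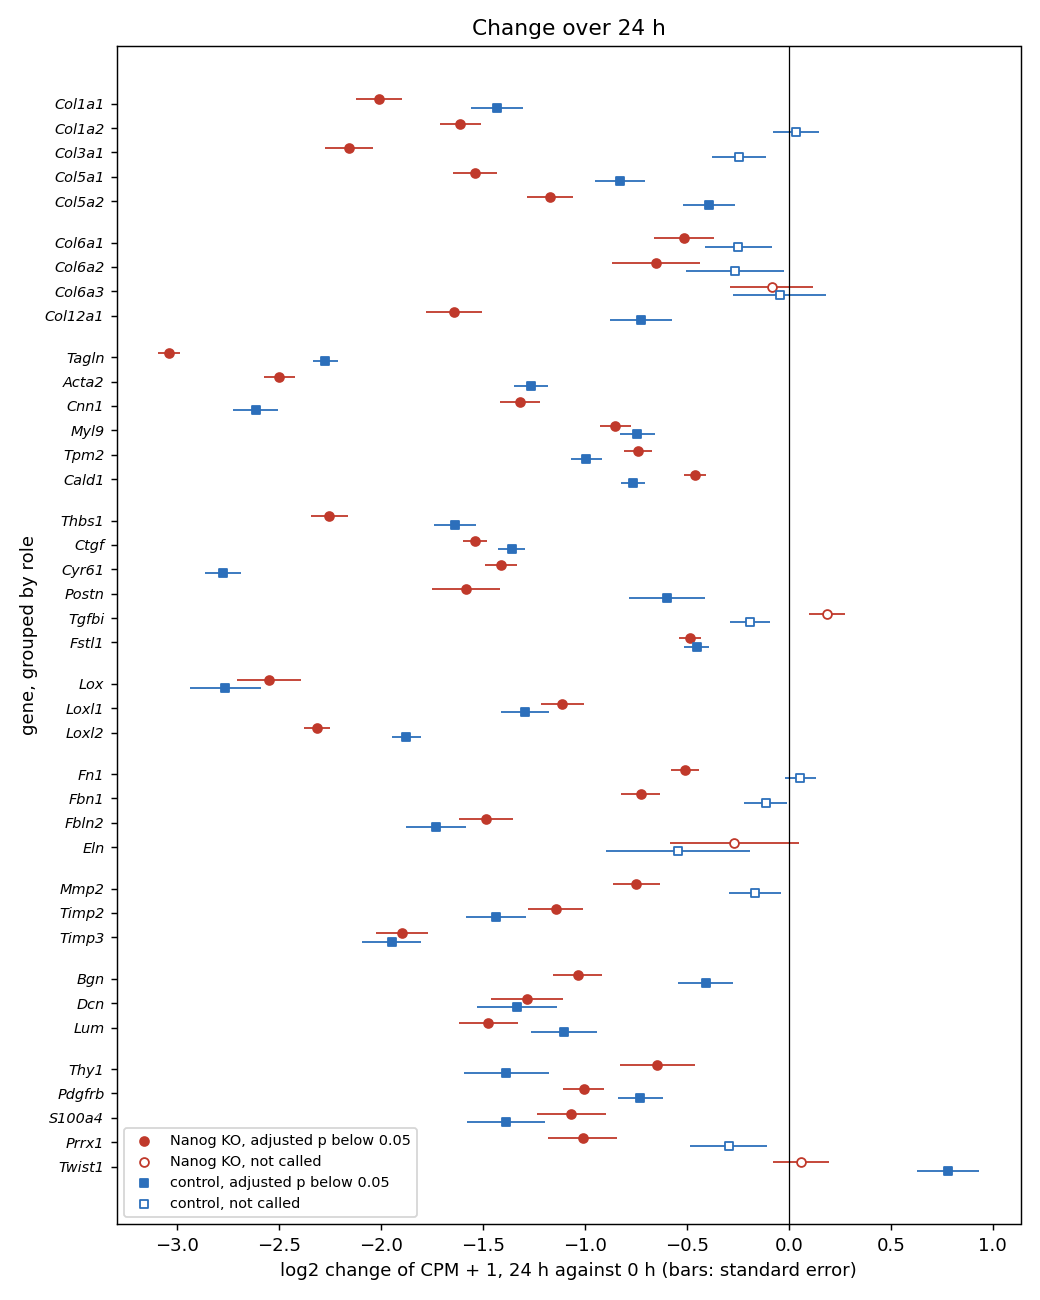
Points give the log2 change of CPM + 1 between 0 and 24 h for each gene (rows, grouped by role), with Nanog KO in red above control in blue and standard errors as bars. Filled points are called and open points are not. Lox, Timp3, Dcn and Fstl1 have overlapping points in both genotypes, while Col1a2 and Col3a1 stand at -1.61 and -2.16 in Nanog KO cells with control points near 0.

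Differences between the genotypes in the fibrillar collagens arose or widened over the 24 h. Col1a1 (chr11:94936224-94953042 in GRCm38) and Col1a2 (chr6:4504814-4541544) encode the chains of collagen I, and Col3a1 (chr1:45311538-45349706) encodes collagen III. Col1a2 was at 190, 212 and 209 CPM in Nanog KO cells at 0 h, at 119, 123 and 155 CPM at 12 h, and at 72.2, 56.0 and 70.7 CPM at 24 h. Control cells had it at 204 and 222 CPM at 0 h, at 307, 311 and 283 CPM at 12 h, and at 199, 210 and 247 CPM at 24 h. The 2 genotypes overlapped at 0 h, and at 12 and 24 h every Nanog KO library lay below every control library. The log2 change over 24 h was -1.61 ± 0.10 (SE) in Nanog KO cells, and the control mean at 24 h was 103% of its 0 h mean. The genotypes' changes differed by -1.65 ± 0.15 (adjusted p = 3.1e-07, limma interaction term).

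In control cells Col3a1 had 97.6% of its 0 h mean at 12 h and 84.4% at 24 h, where Col1a2 had 141% and 103%. Col3a1 was at 167, 182 and 188 CPM in Nanog KO cells at 0 h, at 84.3, 91.3 and 105 CPM at 12 h, and at 38.8, 30.6 and 51.3 CPM at 24 h. Control libraries held 169 and 174 CPM at 0 h, 164, 173 and 165 CPM at 12 h, and 150, 139 and 146 CPM at 24 h. The genotypes overlapped at 0 h and were apart at 12 and 24 h, with the control libraries of 24 h slightly below those of 0 h. The changes over 24 h were -2.16 ± 0.12 in the Nanog KO line and -0.24 ± 0.13 in the control line, and their difference was -1.91 ± 0.18 (adjusted p = 3.1e-07, limma). The control change was not called (adjusted p = 0.13, limma), but it was called in a fit of the compared groups only (adjusted p = 0.02, limma) and without Nanog KO 24 h replicate 2 or replicate 3 (adjusted p = 0.038 and 0.025, limma).

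Col1a1 fell in both lines. It was at 403, 462 and 445 CPM in Nanog KO cells at 0 h, at 231, 241 and 317 CPM at 12 h, and at 115, 91.2 and 118 CPM at 24 h. Its control values were 535 and 656 CPM at 0 h, 500, 519 and 477 CPM at 12 h, and 212, 201 and 246 CPM at 24 h. Every Nanog KO library lay below every control library at each time. Its log2 changes over 24 h were -2.01 ± 0.11 in the Nanog KO line and -1.43 ± 0.13 in the control line, and the difference of -0.58 ± 0.17 (adjusted p = 0.015, limma) was lost without control 0 h replicate 2 (-0.43, adjusted p = 0.1). At 0 h its genotype difference of -0.44 was lost without control 0 h replicate 3 (-0.30). Col5a1 and Col5a2 encode chains of collagen V, which regulates fibril width. Col5a1 fell by 1.54 in the Nanog KO line and by 0.83 in the control line on the log2 scale, and Col5a2 fell by 1.17 and by 0.39. The Col5a2 fall in control cells was lost without control 0 h replicate 3 (-0.33). All 5 fibrillar collagen genes fell more in Nanog KO cells than in control cells over 24 h. Of all tested genes 14.3% had a more negative change in Nanog KO cells. At both 12 and 24 h all 5 were lower in the Nanog KO line, against 3 at 0 h. The shares of all tested genes that were lower were 26.9%, 25.2% and 24.5% at 0, 12 and 24 h.

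Collagens VI and XII went different ways. Col6a1, Col6a2 and Col6a3 encode the chains of collagen VI, which forms beaded microfibrils around cells. Col6a3 was at 18.1, 23.4 and 26.0 CPM in Nanog KO cells at 0 h, at 16, 21.8 and 30.7 CPM at 12 h and at 24.4, 17.8 and 21.1 CPM at 24 h. It was at 9.99 and 14 CPM in control cells at 0 h, at 8.96, 10.9 and 9.78 CPM at 12 h and at 8.62, 11.7 and 14.8 CPM at 24 h. Nanog KO libraries were above control libraries at all times, by log2 0.86 ± 0.23, 1.09 ± 0.20 and 0.82 ± 0.20 at 0, 12 and 24 h, and neither genotype changed over 24 h by a call. The 0 h difference was lost without control 0 h replicate 2 (0.63). Col6a1 and Col6a2 were higher in the Nanog KO line at 12 h (0.52 and 0.80) and were not called at 24 h. Their 0 h differences of 0.45 and 0.67 were lost without control 0 h replicate 2 (0.29 and 0.48) or Nanog KO 0 h replicate 2 (0.43 and 0.63), and that of Col6a2 without Nanog KO 0 h replicate 3 (0.66). Col12a1, a collagen that binds to the surface of collagen I fibrils, instead moved with the fibrillar collagens, falling by 1.64 in Nanog KO cells and by 0.72 in control cells (difference -0.92 ± 0.21, adjusted p = 0.0023, limma).

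Contractile genes were lower in Nanog KO cells from the start. All 6 (Tagln, Acta2, Cnn1, Myl9, Tpm2 and Cald1) were already lower in the Nanog KO line at 0 h. Of all tested genes 26.9% were lower at that time. Acta2 (chr19:34241090-34255590), smooth muscle actin, was at 92.5, 105 and 101 CPM in Nanog KO cells at 0 h, at 35.1, 36.8 and 37.8 CPM at 12 h and at 19.1, 16.8 and 14.5 CPM at 24 h. The control line had it at 266 and 264 CPM, then at 162, 143 and 142 CPM, then at 107, 108 and 115 CPM. The genotypes did not overlap at any time, and the gap widened, with log2 differences of -1.41 ± 0.09, -2.00 ± 0.08 and -2.64 ± 0.08 at 0, 12 and 24 h. The interaction over 24 h was -1.24 ± 0.11 (adjusted p = 3.2e-07, limma).

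Cnn1, calponin, which binds actin filaments, had a gap that narrowed over the same hours. It was at 7.97, 8.81 and 8.71 CPM in Nanog KO cells at 0 h, at 4.59, 4.14 and 4.55 CPM at 12 h and at 3.12, 2.76 and 2.56 CPM at 24 h. Control libraries had it at 49.5 and 48.4 CPM, then at 14.9, 13.3 and 13.3 CPM, then at 6.69, 6.43 and 8.44 CPM. The libraries of the genotypes stayed apart at each time, but the log2 difference shrank in size, being -2.40 ± 0.11, -1.45 ± 0.10 and -1.10 ± 0.10 at 0, 12 and 24 h. The interaction was 1.3 ± 0.15 (adjusted p = 3.9e-06, limma), the opposite sign to that of Acta2. Tagln, transgelin, had the deepest fall of any member in the Nanog KO line, by 3.04 ± 0.05, and fell by 2.27 ± 0.06 in the control line. Myl9, a myosin regulatory light chain, was lower in Nanog KO cells by 1.78, 1.85 and 1.88 at 0, 12 and 24 h, a gap that its interaction did not call as changing. Tpm2, a tropomyosin, was lower by 0.62, 0.59 and 0.36. Cald1, caldesmon, was lower by 0.35 at 0 h and was not called at 12 or 24 h.

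**Figure D3:**
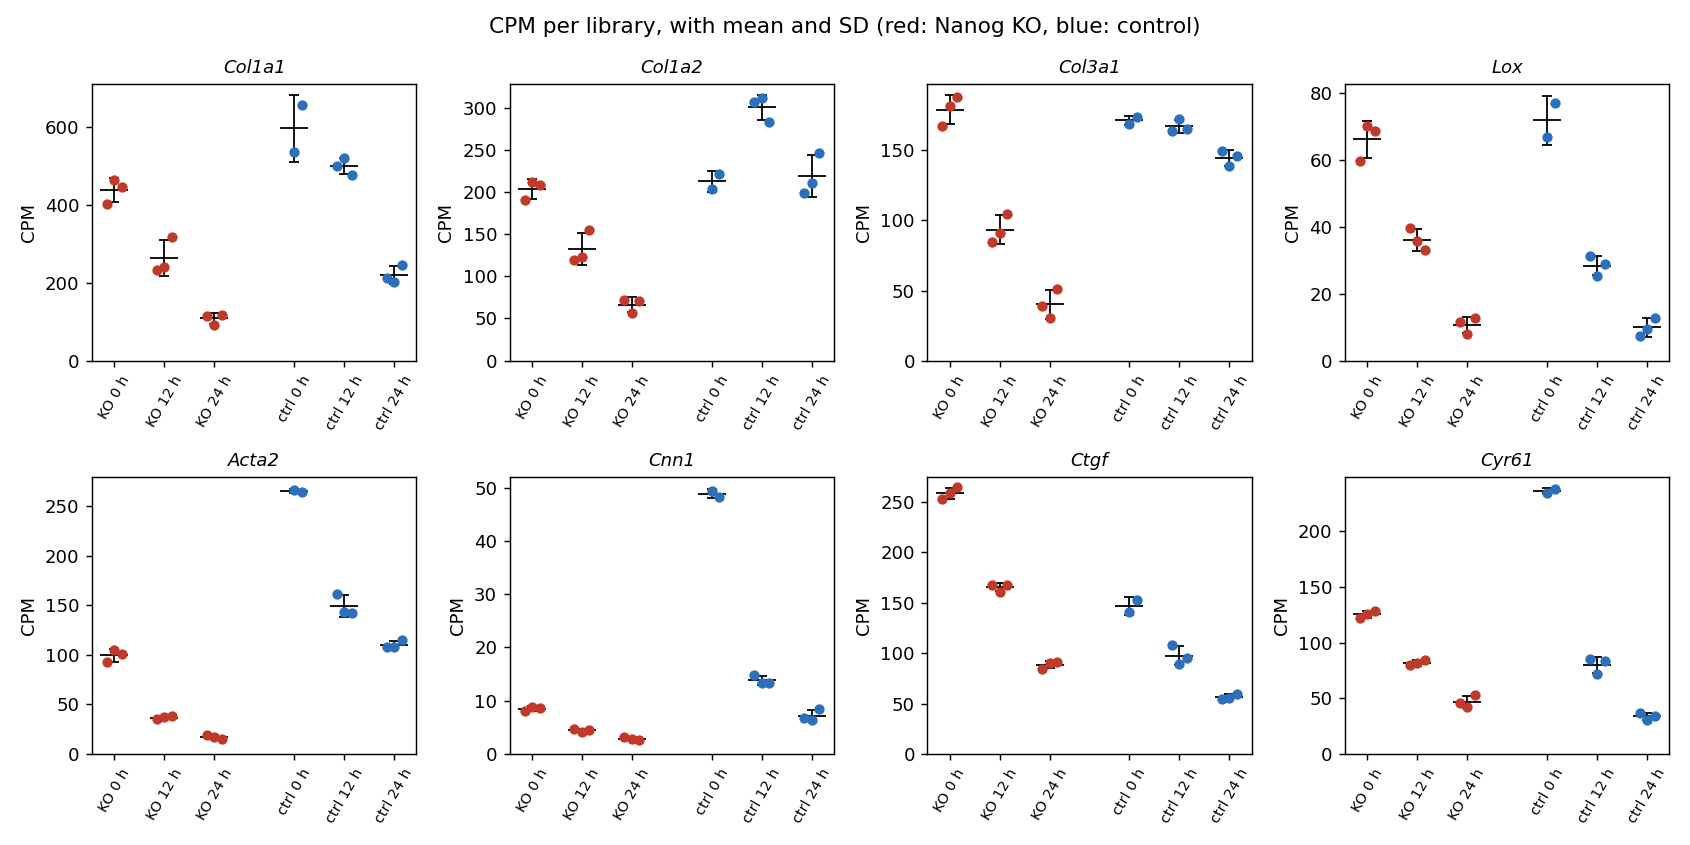
Points give the CPM of each library for 8 genes, with bars for the mean and SD of each group (n = 3, or 2 for control 0 h), Nanog KO in red on the left and control in blue on the right. Col1a2 and Col3a1 start level in both lines and separate, Lox falls in both, Acta2 and Cnn1 start apart, Ctgf is higher in Nanog KO cells at each time, and Cyr61 is lower in Nanog KO cells at 0 h but higher at 24 h.

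Of the matricellular genes, which encode secreted proteins that signal from the matrix, Ctgf and Cyr61 are related and are both known targets of YAP and TEAD. Cyr61 (chr3:145646976-145649981) was at 122, 125 and 128 CPM in Nanog KO cells at 0 h, at 79.6, 81.5 and 84.7 CPM at 12 h and at 45.6, 41.9 and 52.6 CPM at 24 h. For control cells the values were 235 and 238 CPM, then 84.9, 72.0 and 83.3 CPM, then 36.7, 30.2 and 34.2 CPM. Nanog KO libraries were all below control libraries at 0 h, overlapped them at 12 h and were all above them at 24 h. The log2 difference was -0.91 ± 0.09 at 0 h and 0.46 ± 0.08 at 24 h, and the interaction was 1.37 ± 0.12 (adjusted p = 1.4e-07, limma). Ctgf (chr10:24595442-24598683) was at 253, 259 and 265 CPM in the Nanog KO line at 0 h and at 84.3, 90.2 and 91.1 CPM at 24 h. Control cells had it at 141 and 153 CPM at 0 h and at 54.6, 56.0 and 59.3 CPM at 24 h. Ctgf was higher in Nanog KO cells at all 3 times, by log2 0.82, 0.76 and 0.64, and fell by 1.54 ± 0.06 in Nanog KO cells and by 1.36 ± 0.07 in control cells.

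Tgfbi, a secreted protein induced by TGF-beta, was 1 of the 4 members that did not pass the test over 24 h in the Nanog KO line, with Col6a3, Eln and Twist1. It was at 7.19, 7.54 and 7.53 CPM in Nanog KO cells at 0 h, at 9.03, 9.06 and 9.68 CPM at 12 h and at 9.48, 7.37 and 9.01 CPM at 24 h. Its control values were 35.8 and 34.1 CPM, then 55.0, 61.6 and 56.0 CPM, then 28.0, 29.7 and 34.3 CPM. It was lower in Nanog KO cells by 2.10 ± 0.10, 2.51 ± 0.09 and 1.72 ± 0.09 on the log2 scale at the 3 times, and its mean was highest at 12 h in both lines. The Fn1 mean at 12 h was 148% of its 0 h mean in control cells but only 100% in Nanog KO cells. Thbs1, thrombospondin, fell by 2.25 ± 0.09 in Nanog KO cells and by 1.64 ± 0.10 in control cells. Postn, periostin, fell by 1.58 ± 0.17 in Nanog KO cells. Its fall of 0.60 in control cells was lost without control 0 h replicate 3 (-0.57) or control 24 h replicate 1 (-0.44). Fstl1 fell by 0.48 and 0.45 in Nanog KO and control cells.

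The lysyl oxidases, which cross-link collagen and elastin, fell in both lines. Lox was at 59.8, 70.1 and 68.7 CPM in Nanog KO cells at 0 h, at 39.6, 35.8 and 33.2 CPM at 12 h and at 11.5, 7.83 and 12.6 CPM at 24 h. The control line had it at 66.8 and 77.1 CPM, then at 31.2, 25.4 and 28.8 CPM, then at 7.40, 9.56 and 12.8 CPM. The 2 genotypes overlapped at 0 and 24 h, and Nanog KO libraries were all higher at 12 h. Lox fell by 2.55 ± 0.16 in Nanog KO cells and by 2.76 ± 0.18 in control cells, and the difference between these falls was 0.22 ± 0.24 (adjusted p = 0.53, limma), which does not show that they were equal. Loxl1 fell by 1.11 and 1.29, and Loxl2 by 2.31 and 1.88, in Nanog KO and control cells. Loxl2 fell further in Nanog KO cells (interaction -0.44 ± 0.10, adjusted p = 0.002, limma).

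Of fibronectin and the elastic fibre genes, 3 of 4 fell over 24 h in Nanog KO cells, where 29.5% of all tested genes fell. In control cells 1 of 4 fell, near the 28.7% of all tested genes. Fn1, fibronectin, was the member with most reads. In the Nanog KO line it was at 973, 998 and 1061 CPM at 0 h, at 1006, 977 and 1058 CPM at 12 h and at 770, 718 and 646 CPM at 24 h. Control libraries had it at 846 and 997 CPM at 0 h, at 1331, 1417 and 1338 CPM at 12 h and at 922, 934 and 1012 CPM at 24 h. Fn1 rose by 0.57 ± 0.08 between 0 and 12 h in control cells, and it fell by 0.51 ± 0.07 over 24 h in Nanog KO cells. Fbn1, fibrillin of elastic microfibrils, fell by 0.73 ± 0.10 in Nanog KO cells and was not called in control cells, with an interaction of -0.61 ± 0.14 (adjusted p = 0.0034, limma). Fbln2, fibulin, fell by 1.49 and 1.73 in Nanog KO and control cells. Eln, elastin, had the largest standard errors of the members, 0.32 in the Nanog KO line and 0.35 in the control line over 24 h, with 5.62, 4.21 and 2.75 CPM in the Nanog KO line at 24 h and 1.57, 4.01 and 6.02 CPM in control cells at 24 h. Its values dipped at 12 h in both lines, to 1.56, 1.78 and 1.63 CPM in Nanog KO cells and 0.709, 0.571 and 1.09 CPM in control cells.

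Timp2 and Timp3 inhibit matrix metalloproteinases such as Mmp2, which degrades gelatin and collagen IV. Timp3 was at 36.0, 44.5 and 48.5 CPM in Nanog KO cells at 0 h, at 13, 14.7 and 12.4 CPM at 12 h and at 12.2, 10.2 and 9.86 CPM at 24 h. For control cells the values were 40.2 and 47.4 CPM, then 11.4, 10.7 and 11 CPM, then 8.42, 12.8 and 10.9 CPM. It fell by 1.90 ± 0.13 in the Nanog KO line and by 1.95 ± 0.14 in the control line over 24 h, and neither line had a call between 12 and 24 h. Timp2 fell by 1.14 and 1.44 in Nanog KO and control cells. Mmp2 fell by 0.75 ± 0.11 in Nanog KO cells and was not called in control cells, and its interaction of -0.58 was lost without control 0 h replicate 2 (-0.49).

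The small proteoglycans bind collagen fibrils. Dcn, decorin, was at 11.4, 11 and 11.7 CPM in the Nanog KO line at 0 h and at 3.91, 3.03 and 5.60 CPM at 24 h. Control cells had it at 12.3 and 11.8 CPM at 0 h and at 2.84, 4.22 and 5.94 CPM at 24 h. The libraries of the 2 lines overlapped at 24 h, after a fall of 1.29 ± 0.18 in Nanog KO cells and of 1.33 ± 0.20 in control cells. Lum, lumican, fell by 1.47 and 1.10 in Nanog KO and control cells. Bgn, biglycan, fell by 1.04 ± 0.12 in Nanog KO cells, and its fall of 0.41 in control cells was lost without control 0 h replicate 3 (-0.30). Its interaction of -0.63 was lost without control 0 h replicate 2 (-0.52).

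Surface and transcription factor genes held the only member that rose over 24 h in control cells, Twist1. Thy1, a surface glycoprotein, fell by 0.65 and 1.39 in Nanog KO and control cells. Pdgfrb, a receptor for platelet-derived growth factor, fell by 1.01 and 0.73, and S100a4, a calcium-binding protein of motile cells, fell by 1.07 and 1.39. Prrx1, a homeodomain factor of limb and facial mesenchyme, fell by 1.01 ± 0.17 in Nanog KO cells and was not called in control cells, with an interaction of -0.72 that was lost without either control 0 h library, among others (-0.65 and -0.78). Twist1, a basic helix-loop-helix factor of mesenchyme, was at 4.17, 3.93 and 3.06 CPM in the Nanog KO line at 0 h and at 4.13, 3.49 and 4.08 CPM at 24 h. Its control values were 3.65 and 5.23 CPM at 0 h and 9.08, 7.64 and 8.11 CPM at 24 h. It rose by 0.78 ± 0.15 in control cells (adjusted p = 0.0003, limma), with each 24 h library above each 0 h library, and the 2 Nanog KO ranges overlapped. Its interaction of -0.72 was lost without control 0 h replicate 2 (-0.51).

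A ratio of 2 members within a library is not moved by a factor common to both. CPM is not per length, so only shifts of a ratio between libraries are read here. The Col1a1 to Col1a2 ratio of CPM ran from 2.12 to 2.18 in Nanog KO cells at 0 h, from 1.94 to 2.04 at 12 h and from 1.59 to 1.67 at 24 h. In control cells it ran from 2.63 to 2.96 at 0 h, from 1.63 to 1.68 at 12 h and from 0.957 to 1.07 at 24 h. The ratio thus fell with time in both lines and its ranges in the 3 times did not overlap within either line. The Tagln to Acta2 ratio also fell, to 1.21 to 1.38 in Nanog KO cells at 24 h, against 1.77 to 1.98 at 0 h, and to 0.903 to 0.954 in control cells at 24 h, against 1.78 to 1.96 at 0 h. The Ctgf to Cyr61 ratio stayed between 1.73 and 2.15 in all Nanog KO libraries, and in control libraries it ran from 0.599 to 0.644 at 0 h, 1.14 to 1.27 at 12 h and 1.49 to 1.85 at 24 h. The Tagln to Cnn1 ratio moved in opposite directions between the lines, from 20.9 to 23.0 at 0 h and from 7.44 to 7.81 at 24 h in Nanog KO cells, and from 9.70 to 10.6 at 0 h and from 12.3 to 16 at 24 h in control cells. At 12 h the Tagln to Cnn1 ratio ran from 12.7 to 13.5 in control cells, within its 24 h range. Each of the other 4 of the 8 ratios computed also overlapped between at least 2 times in 1 or both lines. The Col6a1 to Col6a2 ratio overlapped between times in control cells, at 1.27 to 1.31, 1.26 to 1.91 and 1.16 to 1.42 at 0, 12 and 24 h, and ran from 1.03 to 1.41 over all Nanog KO libraries. The Dcn to Lum ratio ran from 1.99 to 2.06, 2.70 to 2.91 and 2.19 to 3.47 in Nanog KO cells, and from 2.68 to 4.16, 2.68 to 3.09 and 3.50 to 4.04 in control cells. The Col5a1 to Col5a2 ratio ran from 1.77 to 1.93, 1.29 to 1.61 and 1.18 to 1.63 in the Nanog KO line, with the last 2 times overlapping, and from 1.97 to 2.23, 1.68 to 1.99 and 1.51 to 1.62 in the control line, with the first 2 times overlapping. The Col1a2 to Col3a1 ratio ran from 1.11 to 1.17, 1.35 to 1.48 and 1.38 to 1.86 in the Nanog KO line, and from 1.21 to 1.28, 1.71 to 1.88 and 1.33 to 1.69 in the control line. Whether the MEFs, the ES cells or both made these transcripts cannot be told apart in these libraries.

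**Figure D4:**
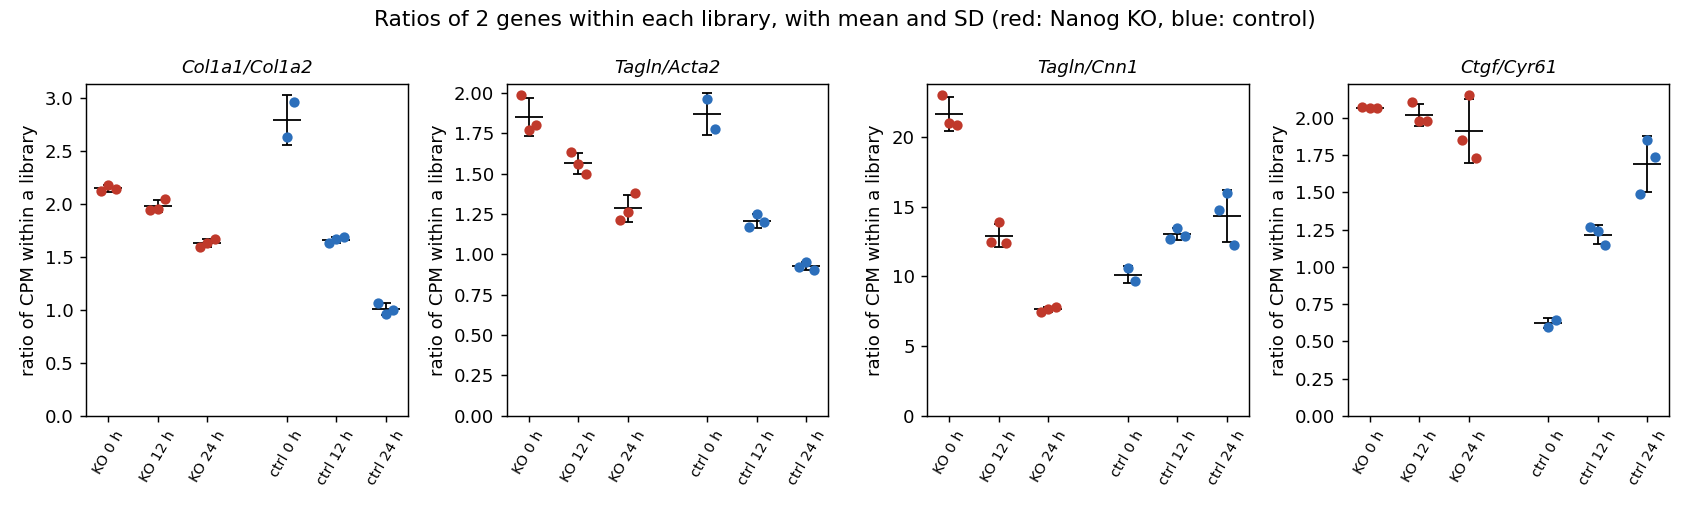
Points give, for each library, the CPM of 1 gene over that of another, with bars for the mean and SD of each group (n = 3, or 2 for control 0 h), Nanog KO in red on the left and control in blue on the right. Col1a1/Col1a2 and Tagln/Acta2 fall with time in both lines, and Tagln/Cnn1 and Ctgf/Cyr61 differ in course between them.

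In 5 of the 6 groups the members tended to be high or low in the same replicate. The exception was control cells at 12 h, where replicate 2 was the highest for 41.0% of members, against 38.4% of all tested genes. In Nanog KO cells at 12 h, replicate 3 was the highest for 66.7% of members, against 36.4% of all tested genes. In Nanog KO cells at 24 h, replicate 2 was the lowest of 3 for 25 of 39 members, against 33.7% of all tested genes. Replicate 3 was the highest in that group for 24 members, against 38.8% of all tested genes. In control cells at 24 h, replicate 3 was the highest for 31 members, against 30.8% of all tested genes. In control cells at 0 h, replicate 3 was the higher of the 2 libraries for 31 members, against 53.8% of all tested genes. In Nanog KO cells at 0 h, replicate 1 was the lowest for 33 members, against 35.5% of all tested genes. The median deviation of the members from their group mean was -0.15 log2 units in Nanog KO 24 h replicate 2 and 0.13 in control 24 h replicate 3. The summed CPM of the 39 members ran from 3622 to 3963 in Nanog KO cells at 0 h, from 2576 to 2849 at 12 h and from 1594 to 1776 at 24 h, and from 4462 to 4944, 3890 to 4062 and 2562 to 2866 in control cells. Fn1 makes up a large part of these sums. Without it they ran from 2648 to 2902 at 0 h and from 875 to 1034 at 24 h in Nanog KO cells. In control cells they then ran from 3616 to 3947 at 0 h and from 1640 to 1854 at 24 h.

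Other genes of the same pathways were counted as lists, beside which stand the shares of all tested genes over 24 h: 29.5% fell and 28.8% rose in the Nanog KO line, and 28.7% fell and 26.1% rose in the control line. Of 38 tested of 42 other fibroblast genes, 27 fell and 4 rose over 24 h in the Nanog KO line, against 26 and 4 in the control line. The medians of their log2 changes were -0.68 and -0.76. Their summed CPM was 2450 to 2521 at 0 h and 1493 to 1735 at 24 h in the Nanog KO line. In the control line it was 2190 to 2241 at 0 h and 1343 to 1435 at 24 h. Unlike the sum of the members, it was thus higher in the Nanog KO line at both times, and the ranges overlapped at 12 h. Vim, vimentin of mesenchymal intermediate filaments, fell by 1.62 and 1.03 in Nanog KO and control cells, and Lgals1, a galectin, by 0.75 and 0.70. Of 20 genes of the actin cytoskeleton and targets of SRF or YAP, 14 were lower in the Nanog KO line at 0 h and 2 were higher, where 26.9% of all tested genes were lower and 25.4% higher. Over 24 h 14 fell and 1 rose in that line, against 17 and 0 in the control line. Tpm1, another tropomyosin, was lower in Nanog KO cells by 1.16, 0.96 and 0.84 at 0, 12 and 24 h. Of 19 procollagen processing enzymes, 9 fell and 4 rose over 24 h in the Nanog KO line, against 10 and 2 in the control line. Serpinh1, the collagen chaperone, rose by 0.14 ± 0.06 in Nanog KO cells and fell by 0.88 ± 0.06 in control cells. Of 17 TGF-beta pathway genes, 13 fell and 2 rose in the Nanog KO line, against 11 and 3 in the control line. Of 12 tested matrix receptor genes, 6 fell and 3 rose in the Nanog KO line, against 4 and 5 in the control line, and the 4 of 12 lie near the share of all tested genes.

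Markers of other cell types moved as well. Not among the 15470 genes of the data were 2 of 12 primitive endoderm, 2 of 10 early mesoderm and 1 of 8 endothelial markers. Also absent were 4 of 8 macrophage and blood markers and 3 of 6 muscle markers, and absent markers enter no sum or count. The summed CPM of 10 primitive endoderm markers was 1040 to 1095 at 0 h and 1689 to 1819 at 24 h in the Nanog KO line, and 278 to 327 at 0 h and 224 to 228 at 24 h in the control line. All 10 were higher in the Nanog KO line at 24 h, where 23.4% of all tested genes were. Among them are Col4a1 and Lama1 of basement membrane, which were higher by log2 2.54 and 3.54. The summed CPM of 11 ES cell markers moved in opposite directions, with 6088 to 6239 at 0 h and 5057 to 5627 at 24 h in the Nanog KO line, and 4591 to 4845 at 0 h and 5704 to 5985 at 24 h in the control line. The ranges of 0 and 24 h did not overlap in either line. A sum such as this weighs genes with many reads most and does not show how single markers moved. Of 7 endothelial markers 5 rose and 1 fell over 24 h in the Nanog KO line, against 4 and 1 in the control line, where 28.8% and 26.1% of all tested genes rose. Their sums were 35.5 to 36.6 CPM at 0 h and 37.2 to 41.2 CPM at 24 h in the Nanog KO line, and 40.4 to 41.6 CPM and 41.1 to 48.6 CPM in the control line. Of 3 muscle markers 2 fell in each line, where 29.5% and 28.7% of all tested genes fell. Their sums were 76.2 to 81.4 CPM at 0 h and 59.5 to 64.7 CPM at 24 h in the Nanog KO line, and 144 to 147 CPM and 55.9 to 59.5 CPM in the control line. Des, desmin, was lower in Nanog KO cells by 1.35 ± 0.11 at 0 h. The sum of 8 early mesoderm markers was lower at 24 h than at 0 h in both lines, as was that of the members, with 83.4 to 90.6 CPM at 0 h and 59.1 to 61.1 CPM at 24 h in the Nanog KO line, and 111 to 121 CPM and 54.1 to 58.8 CPM in the control line. The sum of 4 macrophage and blood markers was 24.2 to 26.2 CPM at 0 h and 19.5 to 21.9 CPM at 24 h in the Nanog KO line, and 14 to 14.6 CPM and 18.9 to 20.6 CPM in the control line. The part of these cell types in the members' changes was not tested.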

How the data were processed

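Polyadenylated RNA of mouse ES cells was sequenced as single reads. Per the methods and labels, reads were trimmed with cutadapt 1.3, mapped to GRCm38 transcripts and quantified with RSEM, whose version differs between the methods and the processing notes; CASAVA 1.8.2 is also named. The deposited values are a scaled signal: reads per gene divided by the TMM-scaled library size (CPM), made by the authors with edgeR. In every library 100% of values were whole multiples of the value of 1 read (tolerance 0.001), so whole reads were recovered for edgeR and DESeq2 as alternatives. The methods also name ComBat for batch correction. The sources used here name no batch, and no such correction was visible in these whole multiples.

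Genes at 1 CPM or more in at least 3 libraries were tested; 353 of the listed genes were not. The main test was limma 3.58.1 (R 4.3.3) with trend on log2(CPM + 1), all 17 libraries in one fit, two-sided, Benjamini-Hochberg over 15117 genes, calls at adjusted p below 0.05. Interactions are the Nanog KO change minus the control change. edgeR 4.0.16 and DESeq2 1.42.0, other scalings, filters, pseudocounts, a replicate block and leaving out each library were alternatives. The method was tested on simulated data.

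All 39 members are named, by role; of other lists at most 4 genes of highest mean CPM could be named. Gene coordinates are those of GENCODE M21. The members and lists were chosen with earlier results of these data known. Counting error alone limits values near 3 reads.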

Additional observations from a re-analysis of the deposited data

Results flagged for a closer look

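The change between 0 and 24 h differed between Nanog KO and control cells, by the limma interaction term, for 21 members, and these are listed with the Nanog KO change minus the control change on the log2 scale. More negative in Nanog KO cells were Col3a1 (-1.91), Col1a2 (-1.65), Acta2 (-1.24), Postn (-0.99), Col12a1 (-0.92), Col5a2 (-0.78), Tagln (-0.77), Twist1 (-0.72), Prrx1 (-0.72), Col5a1 (-0.71), Bgn (-0.63), Thbs1 (-0.62), Fbn1 (-0.61), Mmp2 (-0.58), Col1a1 (-0.58), Fn1 (-0.57) and Loxl2 (-0.44). More positive were Cyr61 (1.37), Cnn1 (1.3), Tgfbi (0.37) and Cald1 (0.30). Groups of 2 or 3 libraries are too small to look for single outlying values.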

How the results depend on the processing

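Of 293 calls on single members over the 12 comparisons, 246 were kept in every alternative that tested them. The other 47 were lost in at least 1, and none changed sign. The filter at a mean of 5 CPM tested 267 of the 293 calls and kept all 267. Another 175 values were not called, and 57 of these changed sign in some alternative. Leaving out members under a mean of 5 CPM gave 0 members rising between 12 and 24 h in Nanog KO cells, 0 in control cells and 0 between 0 and 24 h in control cells, since the low genes were no longer tested. Upper-quartile scaling gave 1 member rising over 24 h in Nanog KO cells. Fitting only the compared groups gave 9 members higher in Nanog KO cells at 12 h, 6 with a positive interaction between 0 and 12 h and 1 between 12 and 24 h. Without trend, 0 members rose between 12 and 24 h in Nanog KO cells and 1 had a positive interaction over that step. The cause was not tested. Median-ratio scaling, upper-quartile scaling and no filter each kept all 293 calls, edgeR and DESeq2 on whole reads lost 3 each, and limma without trend lost 12.

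With 1 library left out at a time, members higher and lower in Nanog KO cells numbered 1 to 7 and 12 to 18 at 0 h, 4 to 6 and 20 at 12 h, and 4 to 6 and 23 to 24 at 24 h. The 1 higher member at 0 h came without control 0 h replicate 2, and 3 came without Nanog KO 0 h replicate 2. Members rising and falling in Nanog KO cells numbered 1 and 29 to 34 between 0 and 12 h, 0 to 1 and 23 to 27 between 12 and 24 h, and 0 to 1 and 34 to 35 over 24 h. In control cells they numbered 3 to 5 and 21 to 27, 2 to 3 and 18 to 26, and 1 and 24 to 29. Positive and negative interactions numbered 2 to 4 and 7 to 13, 1 to 2 and 3 to 6, and 2 to 5 and 12 to 17. The control 0 h group has 2 libraries, and leaving out either lost 17 of the 293 calls, the most of any library; the lone library is then assumed to vary like the other groups.

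Over all tested genes, replicate numbers did not pair the libraries (40 correlations of same-numbered deviations, -0.19 to 0.10, of which 2 passed 0.1). Among the members, replicate 3 was most often the highest in Nanog KO cells at 12 and 24 h and in control cells at 0 and 24 h. Whether the replicate number had an effect on the members as a set was not tested. A replicate block kept 292 of the 293 calls, with 17 members lower in Nanog KO cells at 0 h, 3 positive interactions over 24 h (that of Tgfbi was lost, at 0.36), 35 members falling over 24 h in the Nanog KO line and 27 in the control line.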
